A study of Ovis aries with 60 samples.

Results

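The region described here is a 2.5-Mb block of sheep chromosome 3, from position 218500000 to 221000000 of Oar_rambouillet_v1.0, which holds the genes YBX3 and STYK1 and, after them, a stretch of C-type lectin genes. Its members were all cytosines listed in the deposited tables between those positions, in the CG context and in the non-CG contexts CHG and CHH, where H is any base but G. The block was selected on diet differences measured in these same samples, so the differences between diet groups are given as a description. Tests over all listed cytosines serve below only to say which cytosines were called, and nothing about diet is concluded from them within the block. Of the CG cytosines listed in F1 it held 398 of 294661, and of those listed in F2 157 of 122453. The CHG cytosines of the block numbered 2770, 2915 and 1790 in F0, F1 and F2, and the CHH cytosines 11561, 11969 and 7763. In all, the block held 39706 of the 29477162 entries listed over generations and contexts. These were 21188 distinct cytosines (502 CG, 3994 CHG and 16692 CHH), of which 5382 were listed in all 3 generations.

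Sperm DNA methylation had been measured by whole-genome bisulfite sequencing in 3 generations of Polypay sheep. The F0 generation was 5 rams that received encapsulated methionine (an addition of 0.22%, 1.5 g) on top of the control diet between weaning and puberty, and 5 rams on the control diet alone. The F0 rams came from twin pairs split between the diets, but which numbers were twins is not named. F1 was measured as 5 pools of sons of methionine-fed rams and 5 pools of sons of control rams, 1 pool for each F0 ram. F2 was measured as 10 and 10 single rams, 2 for each F0 ram, all sired through 1 F1 ram for each F0 ram. F1 and F2 animals were on control diets and all dams were untreated Polypay ewes, so in these generations "methionine" and "control" name the diet of the F0 sire. The 2 F2 rams that go back to 1 F0 ram are therefore relatives and not independent. No ages are given in the labels. RNA had been sequenced from sperm of the same 20 F2 rams.

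DNA methylation is the addition of a methyl group to cytosine, in mammals mostly in the CG context. Bisulfite turns unmethylated cytosines into bases that are read as thymine, and the level of a cytosine is the percentage of its reads that still show a cytosine. Each sperm cell carries a single copy of an autosome, and the sperm of a ram are a mixture of both parental copies of that ram. Dams were not sequenced, so the level of the copy that a ram had from its dam is not known. YBX3 encodes a cold-shock domain protein that binds DNA and RNA and represses translation of stored mRNAs in male germ cells. STYK1 encodes a membrane-bound protein with a kinase-like domain. The C-type lectin genes that follow encode surface receptors of natural killer and myeloid cells, such as CLEC7A, the receptor for fungal beta-glucan, and OLR1, the receptor for oxidized low-density lipoprotein. In the later RefSeq annotation of ARS-UI_Ramb_v3.0, used here for gene order only, the genes run YBX3, STYK1, MAGOHB, LOC101123029, LOC105613000, KLRK1, LOC101117151, GABARAPL1, TMEM52B, OLR1, CLEC7A, CLEC1A, with other genes between some of them.

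Mean CG methylation across the block was similar in sperm of all groups. CG methylation averaged 68.7% ± 2.02 (SD, n = 5) in methionine-fed and 69.1% ± 0.819 (n = 5) in control F0 rams. It was 69.6% ± 1.86 and 70.3% ± 1.14 in the F1 pools, and 73.2% ± 3.2 and 72.2% ± 2.26 (n = 10 each) in the F2 rams. All 3 differences, -0.418, -0.749 and 1.03 points, were smaller than the SD between samples of a group, and the groups overlapped in every generation. CHG and CHH cytosines averaged from 0.362% to 0.523% in every group. In F0 both were lower in methionine-fed rams, CHG at 0.362% ± 0.039 against 0.425% ± 0.0453 and CHH at 0.366% ± 0.00971 against 0.393% ± 0.0204 (n = 5 each), by more than the SD of either group but with overlapping rams. Single F0 rams ranged from 66.2% to 71.2%, and single F2 rams from 67.5% (a grandson of ram 9) to 78.9% (a grandson of ram 23). The CG cytosines just inside the 2 ends of the block were near full methylation in F0, 99% and 98.9% in the methionine and control groups at 218510923 and 94.4% and 98.1% at 220948460. Those just outside, at 218397036 and 221006452, differed by 2.25 and -4.63 points (methionine minus control, reads summed over the group). The nearest listed outside the block differed by 0.415 points at 218327852 and -13.5 points at 221014801 in F1, and by 1.3 points at 218285782 and 5.12 points at 221092952 in F2.

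The cytosines called for diet lay over 2009 kb, some of them close together and most far from the next. Neighbours called in the same direction included 219936390 and 219936508 (higher after methionine), and 220367021 and 220367041 (lower), as well as 220910233 and 220910280 (lower). Others called in F0 went in opposite directions, such as 219362098 (-21.6 points) and 219362140 (34.5 points), 219935430 (-31 points) and 219936390 (22.5 points), and 220511018 (-40.1 points) and 220510926 (57.7 points). A differentially methylated cytosine (DMC) was one whose summed reads differed by at least 20 points between the diets with an adjusted p of at most 0.01 by a likelihood-ratio test over all listed cytosines of its context. The test treats reads and not rams as replicates. In F0, 22 CG cytosines (5.74% of those listed in the block) were DMCs, where 1.82% of all listed CG cytosines were. Of the 22, 13 were higher after methionine (0.770% of all CG cytosines were called in that direction) and 9 were lower (1.05%). Another 3 CHG (0.108% of those in the block, against 0.0142% of all) and 10 CHH cytosines (0.0865%, against 0.0145%) were called. In F1, 6 CG cytosines (1.51%, against 1.00% of all) were called, 5 of them higher (background 0.458%) and 1 lower (0.542%). F1 had no CHG call (0.00605% of all) and 1 CHH call (0.00535% of all). In F2, 3 CG cytosines (1.91%, against 2.19% of all) were called, 2 higher (background 1.10%) and 1 lower (1.09%). F2 also had 1 CHG call (0.0306% of all) and 2 CHH calls (0.0266% of all). The block was chosen on differences in these samples and the F1 and F2 shares lay near those of all CG cytosines, so nothing is read from the shares. Single samples moved them, since F1 had 3 CG calls without the methionine pool of ram 9, and F2 had 5 without the rams of sire 5, 12 or 24.

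With the ram or pool as the replicate, no CG cytosine of the block passed. A limma fit on the levels of all CG cytosines, run for this context only, called 0 in the block and 0 of all CG cytosines in each generation. At an unadjusted p under 0.05 there were 30 CG cytosines of the block in F0, where 12878 of 313527 listed were, 28 in F1 (14199 of 294661) and 6 in F2 (3625 of 122453). The diet groups did not overlap at 4 CG cytosines of the block in F0, where 0.575% of all CG cytosines had no overlap, at 3 in F1 (0.670% of all) and at 0 in F2 (0.000817% of all). Of these 4 and 3, 3 were DMCs in F0 and 0 in F1.

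**Figure D1:**
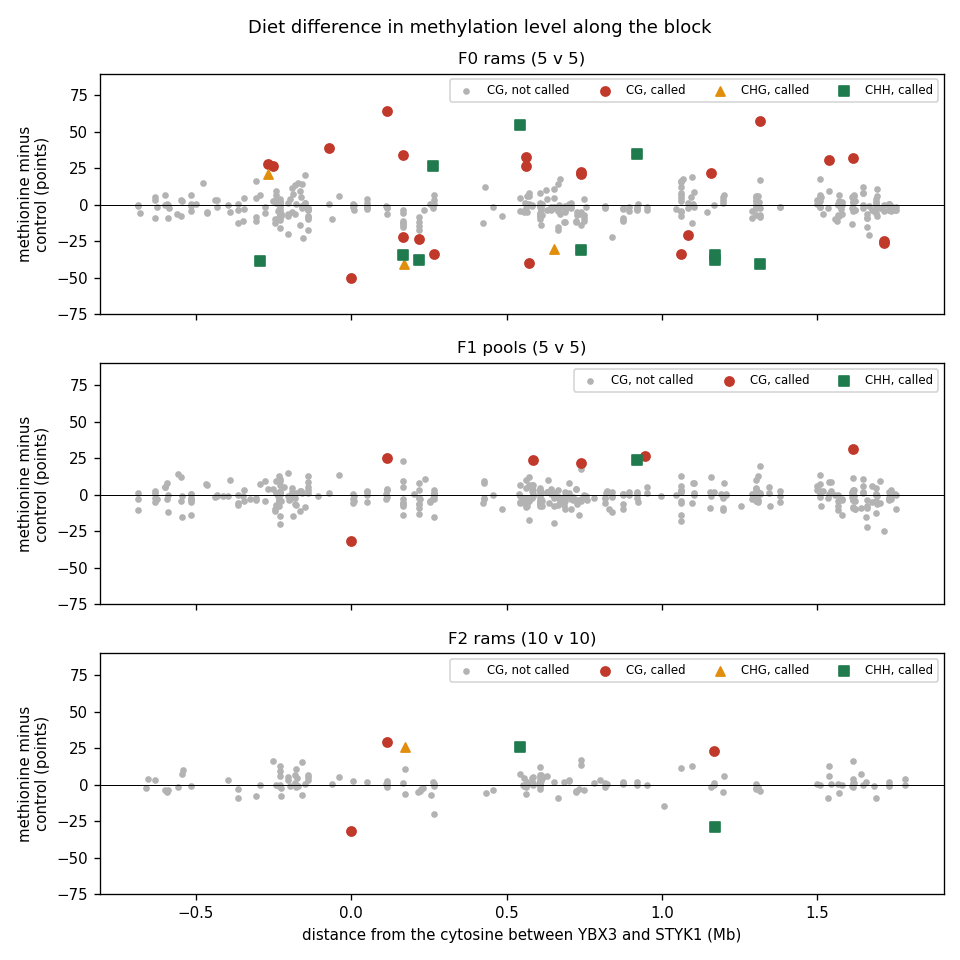
Difference in methylation level, methionine minus control, in percentage points of the reads summed over a group (y axis), against distance in Mb from the called cytosine between YBX3 and STYK1 (x axis), for F0, F1 and F2. Grey points are CG cytosines that were not called, and coloured points are DMCs; the 22 CG, 3 CHG and 10 CHH calls of F0 lie on both sides of 0, interspersed with cytosines close to 0.

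Most cytosines called in F0 differed in the same direction in the descendants. As they were chosen for a large F0 difference, a smaller one elsewhere follows from that choice, and nothing is read from it. Of the 35 cytosines called in F0, 30 were listed in F1, and all 30 differed there in the same direction in reads summed over the group, 29 of them by less. At 218943212 the means of the pools went the other way, 55.4% for methionine and 56.6% for control. The median size of these differences went from 33 points in the F0 rams to 15.7 points in the pools. In F2, 17 of the 35 were listed, 15 differed in the same direction and all 17 by less than in F0, and the median size went from 32.7 to 16.1 points. Over all F0 DMCs of the tables the share with the same direction was 88.4% of CG, 90.7% of CHG and 89.9% of CHH cytosines in F1, and 65.7%, 72.3% and 64.8% in F2. The share with a smaller difference was 92.1%, 92.2% and 93.1% in F1 and 91.1%, 94.2% and 93.1% in F2. Over all CG DMCs of F0 the median size went from 26.4 to 12.6 points in F1, and from 25.8 to 10.2 points in F2. In all, 39 cytosines of the block were called in at least 1 generation, 25 CG, 4 CHG and 10 CHH. Of these, 2 were called in all 3 generations, 3 in F0 and F1 only, 2 in F0 and F2 only, 28 in F0 only, 2 in F1 only and 2 in F2 only. As F1 and F2 descend from the F0 rams measured here, the generations are not independent of each other.

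The cytosine called as lower in the methionine group of all 3 generations was a CG on the minus strand at 219196131. It lies in a LINE element of the RTE-BovB family between YBX3 and STYK1 in the study's annotation. Its level was 39.1, 60, 0, 0 and 66.7% in methionine rams 3, 5, 9, 11 and 23, and 97.6, 92.9, 65.4, 100 and 47.1% in control rams 4, 6, 10, 12 and 24. The means were 33.2% ± 31.9 and 80.6% ± 23.3 (SD, n = 5 each), and the groups overlapped, since control ram 24 was below methionine rams 5 and 23. In the F1 pools of the same F0 numbers the levels were 48, 52.2, 29.7, 0 and 68.6%, against 75.9, 84, 74.2, 55.6 and 64%. The pool of ram 11, a ram at 0%, was itself at 0%, whereas the pool of ram 9, also at 0%, reached 29.7%. In F2 the methionine rams had a lowest level of 0, a median of 42.1 and a highest level of 84.6%, and the control rams 23.5, 58.8 and 100%. The F2 means were 39.4% ± 25.5 and 67.9% ± 28.2 (n = 10 each). The differences of summed reads were -50.2, -31.6 and -31.7 points in F0, F1 and F2. Each level rested on 13 to 50 reads, and no other CG cytosine was listed within 150 bases of it.

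The cytosine called as higher in the methionine group of all 3 generations was a CG on the plus strand at 219309680. It is assigned to LOC101123029, one of the lectin-like genes, by the study's annotation. It stood at 59.1, 44.4, 100, 60 and 62.5% in methionine rams 3, 5, 9, 11 and 23 and at 0% in all 5 control rams. None of the 137 control reads was methylated, which allows a level of up to 2.19% (counting error only). In the F1 pools the levels were 25.9, 14.3, 63.4, 50 and 16.7% for methionine and 23.3, 0, 21.7, 0 and 7.14% for control. The pools of control rams 4, 10 and 24 thus held methylated reads, and their sires had none. The part of copies from the dams in these reads was not tested. In F2, 5 of 10 methionine rams were between 42.9 and 60.9% and the other 5 at 0%. All 10 F2 control rams were at 0%, with 0 of 284 reads methylated, which allows up to 1.06%. The 5 rams with methylated reads were both grandsons of ram 23 and 1 grandson each of rams 3, 9 and 11. The other grandsons of rams 3, 9 and 11 and both grandsons of ram 5 were at 0%. The differences of summed reads were 64.1, 25.1 and 29.1 points in F0, F1 and F2.

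The cytosines listed around it did not share the pattern. Listed CG cytosines at offsets of -143, 61 and 127 bases from 219309680 stayed at 96 to 100%, 87.5 to 100% and 68.4 to 100% in all 10 F0 rams, and at 90.5 to 100%, 92.6 to 100% and 53.3 to 100% in all 20 F2 rams. The 23 listed CHG and CHH cytosines within 150 bases had a highest level of 6.25% in F0 and 10.5% in F2.

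The same arrangement of samples came back far along the chromosome, at a cytosine listed in another context. It was a CHH cytosine at 219740146, 430 kb further, which the study's annotation places in the promoters of LOC105613000 and LOC101116641, both CD94-like lectin genes. Its level was 50, 37.9, 96, 43.8 and 52.6% in methionine F0 rams 3, 5, 9, 11 and 23. Control F0 rams were at 0% but for ram 6 at 2.44%. In F2 the same 5 rams that had methylated reads at 219309680 were at 53.1, 50, 46.9, 50 and 43.8%, the other 5 methionine rams at 0%, and all control rams at 0% but for a grandson of ram 12 at 3.57%. Its levels correlated with those at 219309680 with Pearson's r of 0.99 over 10 F0 rams, 0.91 over 10 F1 pools and 0.98 over 20 F2 rams. It was called in F0 (54.5 points) and F2 (25.9 points), and in F1 it differed by 23 points without passing the adjusted p. The study lists it among its cytosines called in all 3 generations, so the F1 call here differs from the study's. The other CHG and CHH cytosines listed within 150 bases of it had a highest level of 10% in F0 (19 cytosines) and in F2 (10 cytosines). CHH is the context listed for this position, and whether every animal carries it there was not tested.

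A CG cytosine at 220510926, 1201 kb from 219309680 and in an intergenic LINE of the L1 family in the study's annotation, carried the pattern as well. It was at 44.4, 56.8, 94.4, 48.9 and 45.5% in methionine F0 rams and at 0% in all 5 control rams, with r = 0.97 to 219309680. In the F1 pools it was at 31.7, 27.8, 33.8, 46.2 and 3.77% for methionine and at 4.35, 0, 23.9, 0 and 6.52% for control, with r = 0.79. Ram 9 had the highest level at all 3 of these cytosines, from 94.4 to 100%, and the other 4 methionine rams lay between 37.9 and 62.5%. The cytosine was not listed in F2. A listed CG cytosine 20 bases before it stayed between 83.3 and 97.5% in all F0 rams, whereas a CHH cytosine at 220511018, on the other side, was called in F0 in the opposite direction, at a mean of 13% in methionine and 52.2% in control rams.

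**Figure D2:**
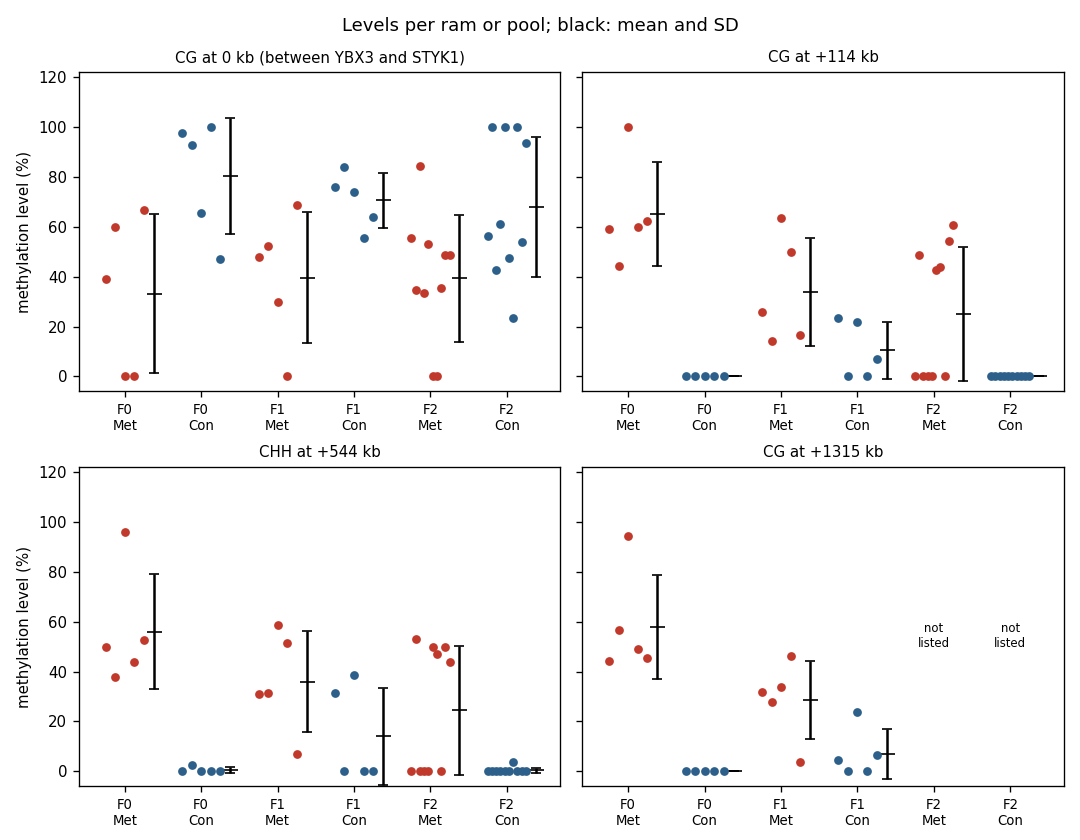
Methylation level in percent (y axis) of each ram or pool at 4 called cytosines, with Met for methionine and Con for control and the distance in kb from the cytosine between YBX3 and STYK1 in each title; points are samples and black bars the mean and SD. At the 3 cytosines 114, 544 and 1315 kb away, control F0 rams lie at or near 0% while methionine F0 rams spread from 37.9 to 100%; the last is not listed in F2.

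Other cytosines called in more than 1 generation showed overlapping groups. A CHH cytosine at 220367021 had lower means in the methionine group of every generation, without being called in F1. The means were 26.5% ± 26.5 against 52.3% ± 21.5 in F0, 33.9% ± 21.3 against 59.9% ± 18.5 in F1 and 26.6% ± 22 against 55.4% ± 21.8 in F2. In F2 both grandsons of methionine ram 3 were at 0%, and 1 grandson each of rams 9 and 11 were at 3.33 and 2.63%. A CG cytosine at 220809706 was higher in the methionine group, at 60.2% ± 26.9 against 24.4% ± 22.5 in F0 and 59.1% ± 16.7 against 28.3% ± 11.5 in F1. It was covered by 72 to 116 reads in F0, where the median over CG cytosines of the block was 25. Why it was covered so deeply was not tested. In F0 its levels fell near 0, 40 and 80%: rams 6 and 12 were at 0%, rams 5, 23, 4, 10 and 24 between 27.6 and 42.9%, and rams 3, 9 and 11 between 79.2 and 80.5%. In F2 it was at 53.9% ± 28.7 against 35.8% ± 23.4 and was not called.

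A CHH cytosine at 220117039 was at 56.2% ± 21 against 23.5% ± 32 in F0 and at 32.4% ± 14.6 against 12.4% ± 11.4 in F1. In F2, 6 of the 10 methionine rams and 9 of the 10 control rams were at 0%, and the others, 1 grandson each of methionine rams 3, 9, 11 and 23 and of control ram 12, were between 34.6 and 62.5%. A CG cytosine at 219936508, in an intron of LOC101117151 in the study's annotation, was at 47.9% ± 18.7 against 27.8% ± 25.6 in F0 and at 41.7% ± 23.7 against 26.9% ± 14.3 in F1. Ram 9 was again the highest of the F0 methionine rams at both cytosines, with 92.9 and 81.2%, and the other 4 lay between 37.8 and 54.2%.

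The remaining cytosines named for the size of their difference were each called in 1 generation. The CG at 219767933 was at 7.59% ± 14.4 in methionine and 46.2% ± 36.3 in control F0 rams, and at 19.3% ± 12.5 against 38.5% ± 20.3 in F1, where it was not called. Control ram 24 was at 100% there and control ram 4 at 0%. The CG at 220140478, which the study's annotation assigns to CLEC7A, was listed in F1 alone and stood at 74.6% ± 20.4 against 46.8% ± 13.9. The CG at 220364751 was listed in F2 alone and stood at 40.2% ± 32.4 against 12.2% ± 22.2. All 3 had overlapping groups. The opposite strand was listed at none of the CG cytosines named here, nor at any other CG of the block in any generation, so that both strands of a CG could not be compared.

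Most CG cytosines that varied between samples were not called for diet. In F0, 62 CG cytosines of the block (16.2%) had levels at least 50 points apart between the highest and the lowest ram, against 17% of all listed CG cytosines. In F1 these were 44 (11.1%, against 11.9%) and in F2 60 (38.2%, against 38.1%). Among CHG and CHH cytosines 8 and 22 varied this much in F0, 0.289% and 0.190% of those in the block, against 0.171% and 0.168% of all listed. Of the 22 F0 CG calls 19 were among the variable cytosines, and all 13 CHG and CHH calls of F0 were.

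Levels at the variable CG cytosines of the block were in F0 and F2 more often at or over 90% than an even spread over the scale gives. Such a spread has 10% at or under 10%, 30% between 35 and 65% and 10% at or over 90%. CG levels of the block were high on average and these cytosines were chosen for a wide range, so nothing is read from that comparison. In F0 rams 13.7% of the values at variable CG cytosines were at or under 10%, 36.0% between 35 and 65% and 19.2% at or over 90%. The same shares over all variable CG cytosines of the table were 14.1%, 34.3% and 23.2%. In F2 rams they were 9.50%, 33.4% and 23.9% in the block, against 10.4%, 31.8% and 19.8% over all variable CG cytosines. At variable CHH cytosines of the block 37.7% of the F0 values were at or under 10% and 34.1% between 35 and 65%, and in F2 54.3% and 23.8%. Over all variable CHH cytosines these were 39.3% and 30.6% in F0, and 48.5% and 24.7% in F2. The F1 pools, each a mixture of several rams, had more values outside these ranges, 50.5% at variable CG cytosines against 31.1% in F0. A thymine in the DNA of an animal gives the same read as an unmethylated cytosine, and the part of such differences in these levels was not tested. The contexts are those listed, and whether single animals carry them was not tested either.

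The correlation between levels of distant cytosines lay between the quartiles of other autosomal windows in F0 and F2, and below their lower quartile in F1. Over pairs of variable CG cytosines at least 100 kb apart, the median absolute r between their levels was 0.346 in F0 (1647 pairs, 10 rams), 0.268 in F1 (856 pairs, 10 pools) and 0.24 in F2 (1605 pairs, 20 rams). In other autosomal windows of the same length with at least 20 variable CG cytosines, the median of the same value was 0.327 (915 windows), 0.316 (751 windows) and 0.227 (706 windows). The block was above 66.7% of those windows in F0, 6.79% in F1 and 67.8% in F2. Pairs with an absolute r of at least 0.85 made up 1.94%, 0.584% and 0.561% of the pairs in the block in F0, F1 and F2, and 2.40%, 1.27% and 0.756% in the other windows. By distance, the F0 median was 0.46 under 1 kb, 0.417 from 1 to 10 kb, 0.332 from 10 to 100 kb, 0.367 from 100 kb to 1 Mb and 0.323 beyond 1 Mb. All pairs share the same few samples, and the diet contrast that chose the block is one of the ways in which these samples differ.

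**Figure D3:**
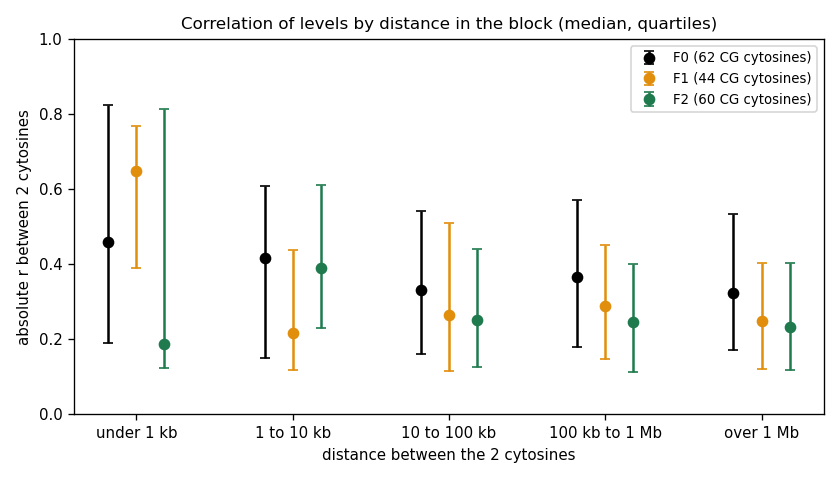
Absolute Pearson's r between the levels of 2 variable CG cytosines of the block (y axis) by their distance (x axis), with the median as a point and the quartiles as bars, for F0, F1 and F2. Medians lie between 0.188 and 0.46 except for 0.648 under 1 kb in F1, and those under 1 kb rest on 22, 7 and 10 pairs.

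Few cytosines followed either of the 2 cytosines called in all generations. Most of those that did lay over 100 kb from the cytosine they followed. Most pairs of variable CG cytosines of the block in F0 were that far apart (1647 pairs, against 178 from 10 to 100 kb). With the cytosine at 219196131, 5 of the other 91 variable F0 cytosines of any context reached an absolute r of 0.85. They were a CHG at 218901338 (r = 0.89), CHH cytosines at 218901380 (0.88) and 219415195 (0.87), a CG at 220258901 (0.9) and the CG at 220809706 (-0.86), the last 1614 kb away. In F1 all 5 kept the sign of r, with absolute values from 0.61 to 0.83, and the 2 listed in F2 did too, with 0.54 and 0.61. With the cytosine at 219309680, 3 reached it, namely 219740146 and 220510926 described above and a CHH at 219361451 (-0.85), the last 51.8 kb away. Between the 2 cytosines themselves r was -0.78 in F0, -0.74 in F1 and -0.48 in F2. As 1 was called lower and the other higher in the methionine group of each generation, an r below 0 follows from that choice. Of the cytosines that reached 0.85, 4 of the 5 and all 3 were themselves called for diet in F0. Nothing is therefore read from these values or from their signs in F1 and F2.

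Pools and grandsons were on average closer to their own F0 ram than to others, with wide overlap. At 43 CG cytosines variable in F0 and listed in F1, a pool differed from its own F0 ram by a median of 13 points (mean over 10 pairs, SD 2.94), from other F0 rams of the same diet by 17.2 ± 4.62 (40 pairs) and from F0 rams of the other diet by 18.8 ± 4.88 (50 pairs). The correlation across these cytosines averaged 0.76, 0.6 and 0.48 in the same order. At 17 CG cytosines listed in F2, a grandson differed from its own F0 ram by 20.6 ± 12.2 points (20 pairs), from others of the same diet by 24 ± 12 (80 pairs) and from those of the other diet by 27.2 ± 12.2 (100 pairs). The order was the same in both generations, own ram, same diet, other diet, but the ranges overlapped, and cytosines called for diet are among those counted. Pairs that share a ram are not independent.

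Sorted by the level of the F0 ram, own grandsons and grandsons of other rams of the same diet differed little in some classes and more in others. Where an F0 ram was at or under 10% at a CG cytosine, 72.0% of the 50 values of its own grandsons were at or under 10%, and so were 62.0% of the 200 values in grandsons of other rams of the same diet. Of the 36 low values in own grandsons, 16 came from the CG at 219918862 and 10 from 219309680, a cytosine of the diet contrast. Where the ram was between 35 and 65%, the median was 52.4% in its own grandsons and 52% in those of other rams. Where it was at or over 90%, the medians were 77.8% and 62.5%, and the means 66.3% in both. In this class 40.6% and 34.8% of the values were at or over 90%, and 10.9% and 5.86% at or under 10%. In the F1 pools the means for the 3 classes were 15.7, 49.3 and 81.4% in the own pool and 22.2, 52.5 and 73.3% in pools of other rams of the same diet. At the 12 CHG and CHH cytosines variable in F0 and listed in F2, 71.4% of the values in own grandsons and 67.0% in others were at or under 10% where the ram was. Where the ram was at or over 90% (14 values of own grandsons), 28.6% and 8.93% were at or over 90%, but 42.9% and 33.9% were at or under 10%. In the F1 pools the means at CHG and CHH cytosines where the ram was at or under 10% were 12.5% in own pools and 23.3% in others.

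**Figure D4:**
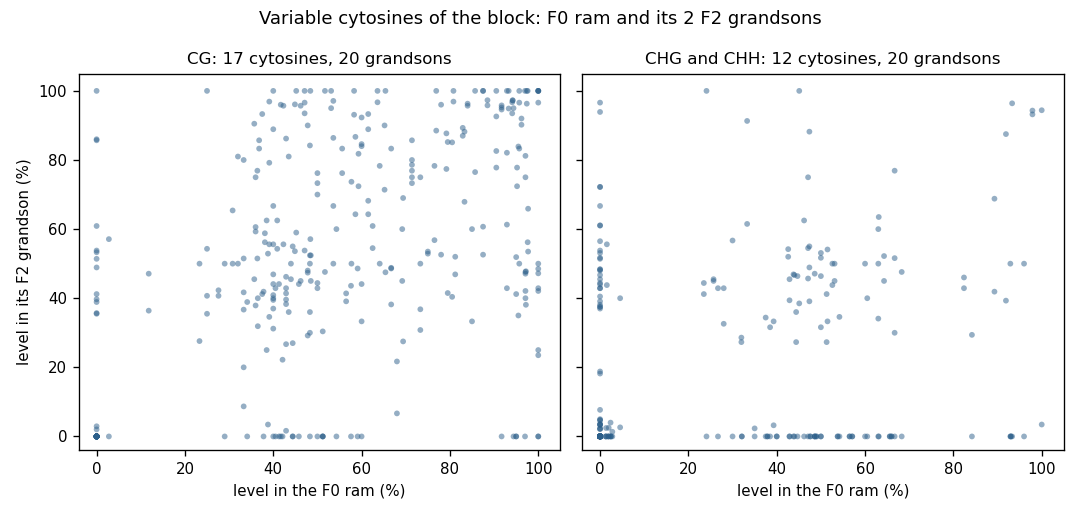
Level of an F0 ram (x axis, percent) against that of each of its 2 F2 grandsons (y axis, percent) at the 17 CG and the 12 CHG and CHH cytosines of the block that varied by at least 50 points in F0 and were listed in F2; each point is 1 cytosine in 1 grandson. Many points lie near 0, 50 or 100% on either axis, and most grandson values for CG levels near 0 in the ram are at or under 10%.

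Grandsons of 1 F0 ram were not clearly more alike than other rams. At 60 variable CG cytosines the 2 rams of a sire differed by a median of 15.8 points (mean over 10 sires, SD 5.83), rams of other sires of the same diet by 17.2 ± 6.95 (80 pairs) and rams of the other diet by 16.9 ± 6.92 (100 pairs). Over all 46601 variable CG cytosines of the table the values were 13.5 ± 7.29, 17.7 ± 9.83 and 16.6 ± 9.26. Within the block the pairs ranged from 5.82 points for the grandsons of ram 23 to 26 points for those of ram 5. In F0, rams with consecutive numbers, 1 of each diet, differed by 24.7 ± 11.4 points (5 pairs), other pairs of different diet by 24.1 ± 7.95 (20 pairs) and pairs of the same diet by 20.5 ± 10.6 (20 pairs).

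No gene in or around the block passed the test for a difference in F2 sperm RNA by the diet of the F0 sire. Of 13577 genes tested with edgeR's quasi-likelihood test, 0 (0.00%) passed an adjusted p of 0.05, and 104 had an unadjusted p under 0.05. DESeq2 was run on the same genes and called 0 of those listed here. Its share over all genes is not given, so nothing is read from that count. Library totals ran from 805831 to 13137757 counts, and the TMM factors by which edgeR scaled library sizes from 0.361 to 2.54. The CPM below (counts scaled to these library sizes) therefore depend on the scaling. YBX3 was at 16.6 to 470 CPM (median 106) in the methionine line and 14.7 to 397 (median 81.8) in the control line. Its log2 fold change, methionine minus control, was 0.04 (SE 0.624, edgeR adjusted p = 1). STYK1 was at 5.25 to 63.1 CPM (median 24.4) and 8.52 to 66.3 (median 24.2), with a log2 fold change of 0.02 (SE 0.41, edgeR adjusted p = 1). The ranges of the lines overlapped at both genes. With DESeq2's size factors both fold changes turned to the other side of 0, -0.02 for YBX3 and -0.07 for STYK1.

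Of the 6 genes listed as neighbours of the called cytosines, 5 had enough counts to be tested and none passed. MAGOHB, a component of the exon junction complex, had a log2 fold change of 0.19 (SE 0.31), GABARAPL1, an autophagy protein of the ATG8 family, 0.02 (SE 0.702) and OLR1 -1 (SE 0.665), and TMEM52B was too low to test. Of 27 C-type lectin and natural killer complex genes, 17 were in the count table and 5 could be tested. Of these, 0 passed, 1 had a fold change above 0 and 4 below, with a median of -0.53 where the median over all tested genes was -0.05. CLEC1A, an inhibitory lectin receptor, had -1.01 (SE 0.778) and CLEC7A -0.53 (SE 0.736), and without the 2 rams of sire 6 both stood above 0, at 0.46 and 0.45, and OLR1 at -0.17. LOC105613000, LOC101116641, LOC101123029 and LOC101117151, to which the study's annotation assigns called cytosines named above, had 136, 108, 91 and 70 counts in all 20 rams together and were not tested. Among other cold-shock domain genes, YBX1, YBX2 and CARHSP1 had log2 fold changes of -0.34, 0.47 and 0.02, and none of the 3 passed, while LIN28A and LIN28B were too low to test.

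**Figure D5:**
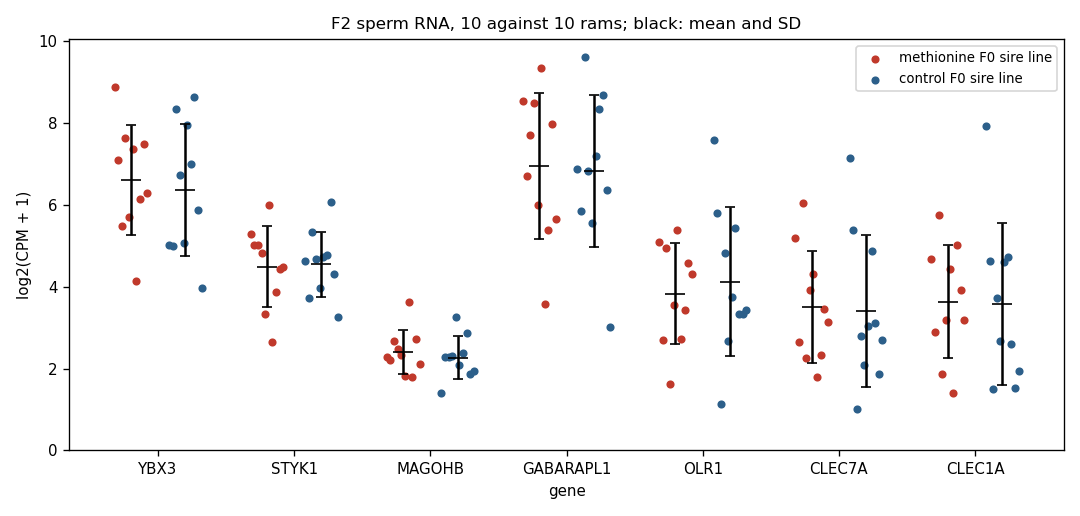
Expression in F2 sperm RNA as log2(CPM + 1) (y axis) of 7 genes in or near the block (x axis), with 1 point for each of 10 methionine-line and 10 control-line rams and black bars for the mean and SD. The 2 lines overlap at every gene, and single rams of a line are several log2 units apart.

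The RNA held markers of cells other than sperm, although a somatic cell lysis step had preceded its extraction. The summed level of 10 listed sperm and spermatid markers ranged from 412 to 28100 CPM in control and 572 to 36700 in methionine rams, that of 12 leukocyte markers from 116 to 56600 and 191 to 26400, and that of 7 epithelial markers from 69.6 to 23100 and 93.3 to 13000. Single markers ranged widely within each list, with medians from 8.34 (AKAP4) to 1960 CPM (CCDC168) among those of sperm and spermatids, 138 CPM for the protamine gene PRM1, from 4.36 (CD3E) to 7080 CPM (S100A9) among those of leukocytes, and from 3.44 (KRT5) to 2950 CPM (KRT4) among those of epithelium. PRM2 was not in the table, all 12 leukocyte markers were found in at least 19 rams, and 0 of the markers tested passed (10 of sperm and spermatids, 12 of leukocytes and 5 of epithelium). The median sums in methionine and control rams were 3270 and 1790 CPM for sperm and spermatids, 12100 and 10300 CPM for leukocytes, and 4060 and 2720 CPM for epithelium. In bulk RNA a different share of such cells and a different amount of RNA per cell cannot be told apart, and the part of these cells in the values above was not tested. The study describes the lysis step for RNA only, and DNA was extracted from semen samples. The part of other cells in the methylation levels was not tested either.

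Methylation at 219196131 was set against the expression of the genes beside it in 13 of the 20 F2 rams. All 20 had both values, but levels were split at gaps of over 20 points and a cluster needed at least 6 rams. The levels fell into clusters of 2, 13 and 5 rams, of which only the middle one, from 23.5 to 61.3%, had enough rams. As the levels were clustered, no value over all rams was computed. The study correlated this cytosine with expression in its F2 samples and lists YBX3 and STYK1 as meeting its own threshold. The rule leaves out the rams with the lowest and the highest levels, so the test cannot decide on a relation over the whole range. No relation passed the test in the 13 rams, and nothing is said of the other 7. There r was 0.24 with YBX3, 0.3 with STYK1 and -0.1 with MAGOHB (n = 13, permutation test, p = 0.426, 0.316 and 0.768, adjusted over the 3 relations 0.639, 0.639 and 0.768). Spearman's rho was 0.34, 0.23 and -0.16 (permutation p = 0.265, 0.461 and 0.594, adjusted 0.594 for each). Without the 2 rams farthest from the median level r was -0.03, -0.14 and 0.03. At 219309680, 15 rams were tied at 0% and the cluster of 5 others was too small, so no relation was computed.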

How the data were processed

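Per the labels and the study's methods, the authors trimmed bisulfite reads with Trim Galore, aligned them to Oar_rambouillet_v1.0 with Bismark and Bowtie2, removed duplicates and extracted calls. The deposited methylation tables hold, read counts without normalization, for cytosines that reached 10 reads in each library of their generation; 120 columns of unmethylated reads were not used. The deposited RNA table holds raw counts per gene (Trimmomatic, STAR). Median depth per sample in the block was 12 to 42 reads per CG cytosine, so a level moves by several points per read, and intervals cover counting error only.

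Calls used a likelihood-ratio test on reads summed per diet group, with Benjamini-Hochberg adjustment over all listed cytosines of the context (SciPy 1.17.1). Alternatives were a difference of 25 points, 20 reads, limma 3.58.1 on levels, leaving out samples and, for RNA, other scalings and filters. RNA genes were kept if over 10 rams had 15 or more counts, and tested with edgeR 4.0.16 (TMM, quasi-likelihood), with DESeq2 1.42.0 as an alternative. CPM were computed by edgeR from the counts of the tested genes with TMM-scaled library sizes. The standard error of a fold change was its size over the square root of F. The likelihood-ratio test and edgeR were also run on simulated data. For the likelihood-ratio test, rams of a group shared 1 level at each cytosine. That simulation therefore cannot show how the test behaves where rams differ.

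Named cytosines were those called in 2 or 3 generations, the 2 CG DMCs with the largest difference in each direction of each generation, and the CG cytosines at the ends of the block; named genes were YBX3, STYK1, their neighbours and 3 lists, from which 1 gene was left out. The members and lists were chosen with earlier results of these data known. Correlations and family comparisons are descriptions without a test. F0 and F2 samples were single rams and F1 samples pools, and the p-values of limma, edgeR and DESeq2 measure the spread between them, whereas those of the likelihood-ratio test cover read counting only.

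Rams with consecutive numbers were checked for shared deviations from their group means, since twins are not named. For these pairs r over variable CG cytosines of the block was 0.5, 0.3, -0.29, -0.49 and -0.35 in F0. Over tested genes it was 0.16, 0.1, -0.11, -0.24 and 0.49 in F2. This check covers only the block and the RNA of grandsons, and cannot decide which F0 rams were twins. As twins are not named, the numbers were not taken to pair samples.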

Additional observations from a re-analysis of the deposited data

Results flagged for a closer look

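At 11 of 57 sets of 5 or 10 levels that were not all equal, the highest sample lay apart from the others by Dixon's ratio of its gap to the range. Chance gives this in about 1 in 20 sets of normally distributed values, and these levels include many at exactly 0, so the rate does not apply here; where all other levels are 0, as with 2.44% (1 of 41 reads), the ratio is 1 by construction. In 4 of them the sample was F0 methionine ram 9, with 96.0% at the CHH cytosine 219740146, 81.2% at the CG 219936508, 92.9% at the CHH 220117039 and 94.4% at the CG 220510926. F0 methionine ram 11 was at 33.3% at the CG 219767933, where the other 4 were at or under 2.44%. Among F0 controls ram 4 was at 89.3% at the CHH 220367021, and ram 6 at 2.44% at the CHH 219740146, where the other 4 were at 0%. The F1 control pool of ram 10 was at 23.9% at the CG 220510926. Among F2 controls a grandson of ram 12 was at 3.57% at 219740146, the other grandson of ram 12 at 51.6% at 220117039 and a grandson of ram 6 at 86.0% at the CG 220809706.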

How the results depend on the processing

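Of 588 alternatives, 21 moved the result and 32 turned the sign of a fold change or correlation. The difference in mean CG level, within the spread between samples, also turned, from -0.418 to 0.191 without F0 methionine ram 5, and to 0.497 in F0 and 0.0473 in F1 (from -0.749) over cytosines listed in all generations. No difference at a named cytosine turned sign or moved by more than the SD between samples, but single samples moved some mean differences by over 1.5 times. These were 219936508 in F0 (20.1 to 11.8 without ram 9, 13.2 without control ram 4 or 10) and F1 (14.8 to 7.14 without pool 9, 9.5 without control pool 6), 219767933 in F0 (-38.6 to -25.1 without ram 24) and F1 (-19.2 to -12.7 without pool 12), 220367021 in F0 (-25.8 to -16.6 without ram 4) and 220809706 in F2 (18.1 to 11 without sire 3). Asking for 20 reads in every sample left few cytosines and gave 9 CG, 1 CHG and 3 CHH calls in F0, 3 CG calls in F1 and 0 calls of each context in F2, and an F2 difference in mean CG level of 4.84 points. With limma on levels no CG cytosine was called (0 in each generation). A difference of 25 points left 0 CHH calls in F1. Leaving out samples gave 17 to 25 CG calls in F0, 3 to 10 in F1 (3 without the methionine pool of ram 9, 10 without that of ram 23) and 2 to 5 in F2 (5 without sire 5, 12 or 24, 2 without sire 10). For 20 reads, 25 points and left-out samples, calls were counted in the block only. As the share over all listed cytosines is missing, nothing is read from these counts. The median absolute correlation was 0.328 (F0) and 0.234 (F2) with Spearman's rho, and 0.27 (F0) and 0.254 (F1) with a range of 30 points.

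The sign of log2 fold changes that did not pass the test turned as follows. DESeq2 gave -0.02 for YBX3, -0.07 for STYK1, -0.07 for GABARAPL1 and 0.53 for CLEC1A, and its size factors in edgeR -0.02, -0.07 and -0.07 for the first 3. Testing genes with any count gave -0.04 for GABARAPL1. Summing the rams of a sire gave 0.02 for CLEC2L and -0.05 for CARHSP1. The replicate block of consecutive F0 numbers gave 0.02 for CLEC1A and 0 calls among the listed genes, a count from which nothing is read. Leaving out both rams of a sire gave -0.31 to 0.30 for YBX3, -0.16 to 0.27 for STYK1, -0.22 to 0.51 for GABARAPL1, -1 to 0.45 for CLEC7A, -1.32 to 0.46 for CLEC1A, -0.25 to 1.09 for LOC114113679 and -0.17 to 0.53 for CARHSP1. Without the 2 rams farthest from the median level, r with YBX3, STYK1 and MAGOHB was -0.03, -0.14 and 0.03. The cause was not tested. Depth limits single levels, at 10 reads most of all, and the reads of thymine cannot be split into unmethylated cytosine and a base of the animal.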
